A study of Mus musculus with 17 samples.

Results

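The genes described are the matrix metalloproteinases (Mmp), the ADAMTS proteases (Adamts), the related ADAMTS-like proteins (Adamtsl) and the tissue inhibitors of metalloproteinases (Timp). They were chosen by symbol: every gene on the array whose name or current symbol is Mmp, Timp, Adamts or Adamtsl with a number, with or without a final letter. This gave 48 of the 27573 named genes on the array, which are 4 Timp, 21 Mmp, 18 Adamts and 5 Adamtsl genes, measured by 83 probes. Of these, 38 genes passed the filter on dim probes and were among the 18133 genes compared between the diets.

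All animals were adult male wild-type C57BL/6J mice that ate a purified high-fat diet, with 30% of its energy as fat, for 13 weeks. Its carbohydrate had a low glycemic index in one group (LGI, 8 mice) and a high glycemic index in the other (HGI, 9 mice), and no group on a low-fat diet was compared here. RNA of epididymal white adipose tissue, a fat pad that lies along the epididymis, was labelled with Cy5 from each mouse and hybridised to a 2-colour Agilent array against a Cy3 pool, made of all samples per the labels. Mice are named by diet and by the number in the labels, which do not say whether cage or litter was shared, and p-values rest on the spread between these samples alone.

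Matrix metalloproteinases are zinc enzymes that cut collagens, elastin, proteoglycans and other proteins outside the cell, some secreted and some held in the membrane. ADAMTS proteases trim procollagens and cut large proteoglycans, and ADAMTS-like proteins share their matrix-binding modules without the protease domain. The TIMPs bind the active site of these enzymes and block it, and the balance of enzyme and inhibitor is part of how the matrix around fat cells is rebuilt as a depot grows.

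Several Mmp genes lie side by side on mouse chromosome 9, and the start sites of 6 of them are shown because they share a short motif at a similar place. The motif searched was TGAGTCA, the AP-1 heptamer to which Fos and Jun proteins bind, on both strands in the 250 bases before each annotated start (RefSeq, GRCm38.p6). Of the 48 genes, 33 had a promoter in that table, and 6 of these (18.2%) held the motif, beside 4.46% of all 32851 promoters and 5.16% of the 27025 genes in the table. All 6 lie close together on chromosome 9, so they are not 6 independent cases to set beside these shares. The 80 bases before each start follow, 5′ to 3′ in the direction of the gene, all on the plus strand, with the motif in capitals. In Mmp13 it lies on the reverse strand and reads TGACTCA.
Mmp7, chr9:7692010-7692089: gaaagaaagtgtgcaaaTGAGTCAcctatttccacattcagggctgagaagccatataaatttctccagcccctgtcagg
Mmp10, chr9:7502262-7502341: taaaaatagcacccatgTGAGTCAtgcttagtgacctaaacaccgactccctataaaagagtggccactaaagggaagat
Mmp1a, chr9:7464061-7464140: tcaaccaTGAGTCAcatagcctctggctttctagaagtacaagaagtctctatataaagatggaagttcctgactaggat
Mmp3, chr9:7445742-7445821: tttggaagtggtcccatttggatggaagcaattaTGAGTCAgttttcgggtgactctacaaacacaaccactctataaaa
Mmp12, chr9:7347294-7347373: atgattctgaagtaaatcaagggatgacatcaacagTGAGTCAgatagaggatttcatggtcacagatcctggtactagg
Mmp13, chr9:7272434-7272513: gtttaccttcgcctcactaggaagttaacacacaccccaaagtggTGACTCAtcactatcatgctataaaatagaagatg
Timp1, chrX:20870086-20870165: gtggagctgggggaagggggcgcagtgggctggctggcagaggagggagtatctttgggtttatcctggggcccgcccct
The motif begins 35 bases before the start in Mmp13, 44 in Mmp12, 46 in Mmp3, 63 in Mmp7 and in Mmp10, and 73 in Mmp1a. Mmp12 has a further annotated start without it. Timp1, on chromosome X, is shown beside them. It is the only one of the 38 tested genes whose values on the brightest probe did not overlap between the diets. The letters of the motif are not in its window. A match of letters is not evidence of binding, and these arrays did not measure binding.

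Detection is given first, as the number of arrays on which the scanner program marked a gene's brightest probe as well above background in Cy5. Of the 48 genes, 27 (56.25%) were detected on all 17 arrays, beside 50.2% of all named genes. A further 17 were detected on some arrays. The remaining 4 were not well above background on any array, as were 16.4% of all named genes. These 4 are Mmp8, the collagenase of neutrophils, Adamts13, the protease that trims von Willebrand factor, and Adamts6 and Adamts19. All 4 TIMPs, the gelatinase Mmp2, the membrane-anchored Mmp14 and the proteoglycan-cleaving Adamts1, Adamts4, Adamts5, Adamts9 and Adamts15 were detected in every mouse.

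The largest gap in detection between the diets was in Mmp12, the elastase of macrophages, which was well above background in 2 of 8 LGI and 7 of 9 HGI mice. Two-sided Fisher's exact test gave an unadjusted p of 0.0567 for it and an adjusted p of 1 over all named genes. None of the 48 genes had an unadjusted p under 0.05 in that test, beside 0.366% of all named genes, and 0% of all named genes passed after adjustment.

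The other genes detected on some arrays showed smaller gaps. Adamtsl2, a protein that binds the microfibrils of the matrix, was detected in 2 LGI and 6 HGI mice, and Adamts7 in 4 LGI and 6 HGI mice. Like Mmp12, Adamtsl2 passed the filter on dim probes mainly through its HGI arrays. The stromelysins Mmp3 and Mmp10 and the gelatinase Mmp9 were each detected in 6 LGI and 7 HGI mice. Mmp21 was detected in 6 LGI and 4 HGI mice and Mmp24, a membrane-type enzyme, in 6 LGI and 5 HGI mice. Mmp15, also of the membrane type, was detected in 7 LGI and 9 HGI mice, Adamts16 in 7 of each diet, and Adamtsl5 in 8 of each.

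Besides the 4 genes detected nowhere, 6 more were too rarely detected to be tested, and only their detection is given. The collagenases Mmp1a and Mmp13 were well above background in 2 LGI and 4 HGI mice and in 1 LGI and 3 HGI mice. Adamts8 was detected in 1 LGI and 5 HGI mice, Mmp16 in 1 LGI and 0 HGI mice, and the tooth enamel protease Mmp20 in 0 LGI and 1 HGI mice. Mmp25, an enzyme of leukocytes, was detected in 0 LGI and 3 HGI mice.

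**Figure D1:**
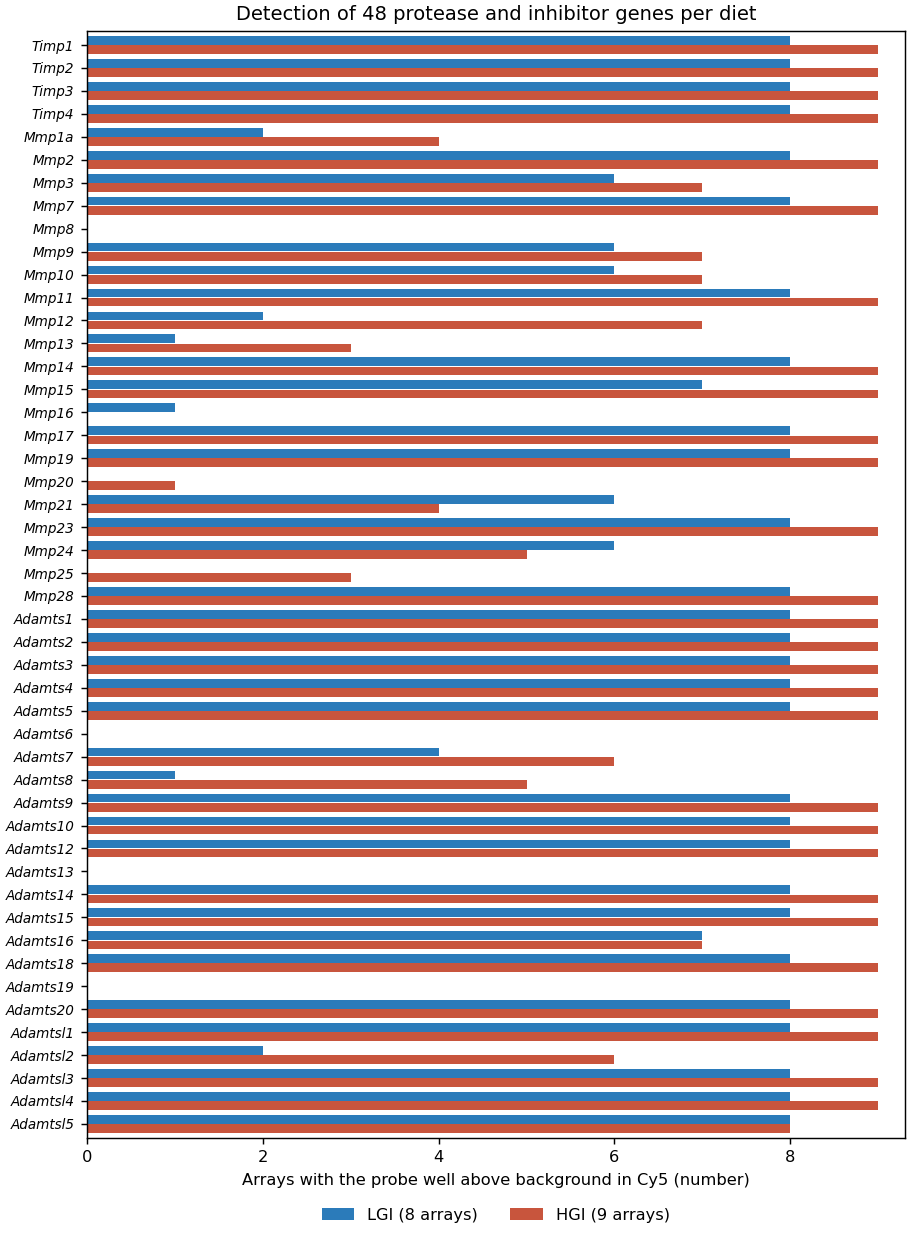
Number of arrays, out of 8 LGI (blue) and 9 HGI (red), on which each of the 48 genes was well above background in Cy5, by family from top to bottom. Most bars reach the full number of both diets; Mmp12 is at 2 and 7 and Adamtsl2 at 2 and 6.

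Levels are compared as log2 ratios of Cy5 to Cy3, the signal of a mouse over that of the pool, and a difference is the HGI mean minus the LGI mean with its standard error. Of the 38 tested genes, 18 (47.4%) were higher and 20 were lower in HGI, beside 52.6% of all tested genes higher. Their median difference was -0.020, beside 0.0058 over all genes. None of the 38 passed limma's test after Benjamini-Hochberg adjustment over the 18133 genes, and neither did any other gene (0%). The smallest adjusted p was 0.520 among the 38 genes and 0.152 among all. At an unadjusted p under 0.05 there were 4 of the 38 genes (10.5%), beside 7.74% of all genes. 2 of these, Mmp12 and Timp1, were higher in HGI, beside 3.97% of all genes, and 2, Timp2 and Timp4, were lower, beside 3.78%. The median size of a difference, regardless of sign, was 0.0789 in the 38 genes and 0.0654 in all genes.

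By family, 1 of 4 Timp genes, 8 of 15 Mmp genes, 7 of 14 Adamts genes and 2 of 5 Adamtsl genes were higher in HGI. The Timp differences ran from -0.40 to 0.40, with a median of -0.19. The Mmp differences ran from -0.50 to 0.47 with a median of 0.032, the Adamts differences from -0.16 to 0.16 with a median of -0.00047, and the Adamtsl differences from -0.078 to 0.046. In all, 6 of the 38 genes differed by more than 0.2 in either direction, beside 8.34% of all genes. Of these 6, 3 are the inhibitors Timp1, Timp2 and Timp4 and 3 are the enzymes Mmp12, Mmp14 and Mmp7. The differences of Mmp14 and Mmp7 each changed sign when 1 mouse was left out.

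**Figure D2:**
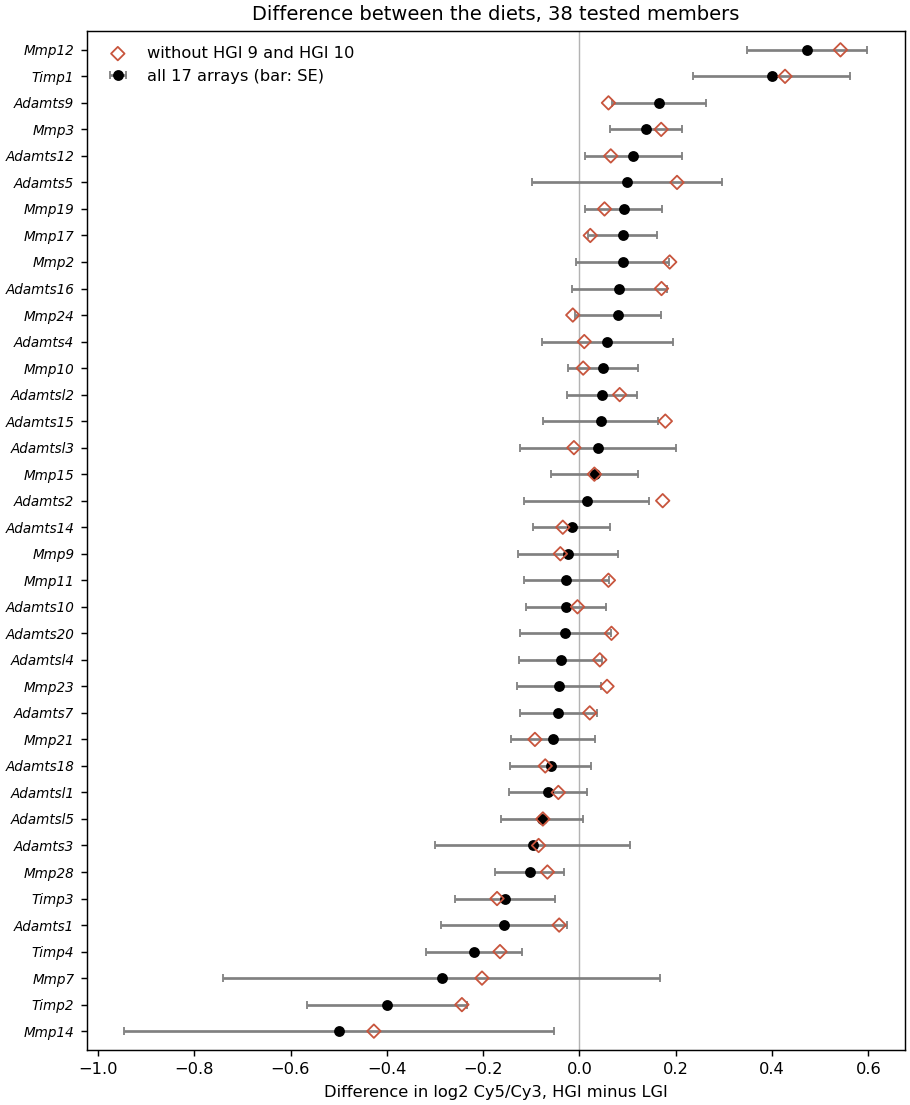
Difference between the diets (HGI minus LGI, log2 Cy5/Cy3, horizontal axis) of the 38 tested genes, sorted by size, with all 17 arrays (black, bar is the standard error) and without HGI 9 and HGI 10 (open red). Mmp12 at 0.47 and Timp1 at 0.40 lie at the top and Timp2 at -0.40, Mmp7 at -0.29 and Mmp14 at -0.50 at the bottom, where the last pair has the widest bars.

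Among the inhibitors, Timp1 is a secreted TIMP that many cell types induce on inflammatory and growth signals. Its log ratio ran from -0.52 to -0.29 with a median of -0.35 in the 8 LGI mice. In the 9 HGI mice it ran from -0.28 to 1.33 with a median of -0.16. On this, the brighter of its probes, every HGI mouse was above every LGI mouse, although the highest LGI and the lowest HGI value were close together. Such a gap occurred in 0.0386% of all tested genes, 7 genes in all. The mean was -0.38 ± 0.097 (SD, n = 8) in LGI and 0.019 ± 0.51 (SD, n = 9) in HGI. The difference was 0.40 ± 0.16 (SE), or 1.32-fold, with an unadjusted p of 0.0237 and an adjusted p of 0.588 in limma. A two-sided exact permutation test, which took each of the 24310 ways to split the mice into groups of these sizes, gave p = 0.00234, not adjusted for the number of genes.

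The size of the Timp1 difference rests in part on HGI 4, the mouse at 1.33, while the next highest HGI mouse, HGI 3, was at 0.12. Without HGI 4 the difference was 0.24 ± 0.069 (SE), with an unadjusted p of 0.00276 and an adjusted p of 0.669 in limma. The direction did not change, and the p became smaller as the spread within HGI did. Leaving out HGI 9 and HGI 10 gave 0.43. Over the alternatives other than leaving out 1 mouse, the adjusted p of the Timp1 difference in limma ran from 0.364 to 0.999.

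A second, dimmer probe of Timp1 was detected in 6 LGI and 5 HGI mice. Its difference was 0.073 ± 0.13 (SE), and HGI 4 was at 0.71 on it. The diets overlapped on this probe, with HGI 5 at -0.48 below every LGI mouse and LGI 4 at 0.090. The mean of both probes gave a Timp1 difference of 0.24 with an unadjusted p of 0.102 in limma. The probes thus gave the same sign and different sizes. The lack of overlap and the call at an unadjusted p under 0.05 hold for the brighter probe alone.

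Timp2 is the inhibitor that, bound to Mmp14, helps to activate the Mmp2 proenzyme, and it also blocks that enzyme. Its log ratio ran from -0.61 to 0.58 with a median of 0.35 in LGI, and from -0.85 to 0.38 with a median of -0.17 in HGI. The diets overlapped, and 8 of 9 HGI mice lay below the LGI median. The lowest LGI mouse was LGI 7, and HGI 10 at -0.85 and HGI 9 at -0.59 were the lowest HGI mice. The mean was 0.22 ± 0.38 (SD, n = 8) in LGI and -0.18 ± 0.39 (SD, n = 9) in HGI. The difference was -0.40 ± 0.17 (SE), with an unadjusted p of 0.0264 and an adjusted p of 0.596 in limma, and the exact permutation test gave p = 0.0520. With HGI 9 and HGI 10 left out it was -0.24 ± 0.15 (SE), with an unadjusted p of 0.114 in limma, so the call was lost without those mice. It was also lost with all mice kept: the unadjusted p of the Timp2 difference was 0.0563 with the scanner program's processed signals, 0.0985 with median centring, 0.0623 with Cy5 alone and 0.0597 with array weights.

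Timp4 is the TIMP best known from heart and fat tissue. It ran from -0.055 to 0.68 with a median of 0.21 in LGI, and from -0.22 to 0.27 with a median of 0.023 in HGI. The ranges overlapped widely, with LGI 5 and LGI 4 the highest mice and HGI 10 the lowest, and 7 of 9 HGI mice below the LGI median. The mean was 0.26 ± 0.26 (SD, n = 8) in LGI and 0.043 ± 0.17 (SD, n = 9) in HGI. The difference was -0.22 ± 0.10 (SE), with an unadjusted p of 0.0400 and an adjusted p of 0.631 in limma, and the exact permutation test gave p = 0.0573. In the mice other than HGI 9 and HGI 10 it was -0.16 ± 0.10 (SE), with an unadjusted p of 0.122 in limma. With all mice kept, the unadjusted p of the Timp4 difference was 0.0754 with processed signals, 0.179 with median centring and 0.0694 with array weights. Leaving out 1 mouse at a time gave -0.26 to -0.16, and the unadjusted p stayed under 0.05 in 8 of 17 cases.

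Timp3, which binds to the matrix and also blocks the sheddase Adam17 and several ADAMTS enzymes, had a lower mean in HGI, within the spread between mice. It ran from -0.25 to 0.36 in LGI and from -0.47 to 0.18 in HGI, and the difference was -0.15 ± 0.10 (SE) with an unadjusted p of 0.149 in limma. In the authors' deposited values the Timp3 difference was larger, -0.24 with an unadjusted p of 0.0227. HGI 4, the highest mouse in Timp1, was the lowest in Timp3.

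**Figure D3:**
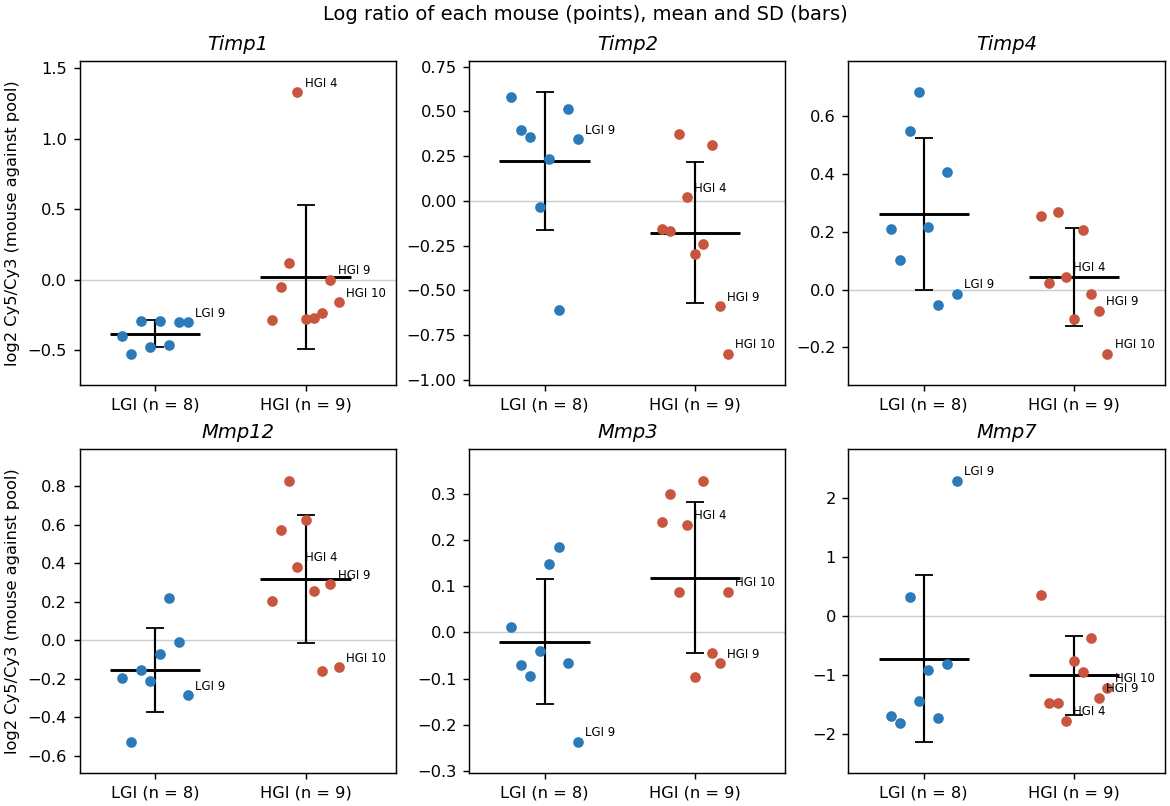
Log2 ratio of each mouse to the pool (points) for 6 genes, with the mean (horizontal line) and SD (bars) of the 8 LGI (blue) and 9 HGI (red) mice and the names of HGI 4, LGI 9, HGI 9 and HGI 10. Timp1 shows no overlap and HGI 4 at 1.33, Mmp12 shows all HGI mice above the LGI median, and Mmp7 shows LGI 9 at 2.31.

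Among the metalloproteinases, Mmp12 had the smallest p. Its product cuts elastin and is made mainly by macrophages. In LGI the log ratio was -0.20, -0.53, -0.16, -0.21, -0.07, 0.22, -0.0099 and -0.29 in mice 1, 2 and 4 to 9. In HGI it was 0.20, 0.57, 0.83, 0.38, 0.62, 0.25, -0.16, 0.29 and -0.14 in mice 1 to 7, 9 and 10. All 9 HGI mice were above the LGI median of -0.18. The diets still overlapped. HGI 1, HGI 7 and HGI 10 lay within the range of the LGI mice, and LGI 4, LGI 6, LGI 7 and LGI 8 within that of the HGI mice. The mean was -0.16 ± 0.22 (SD, n = 8) in LGI and 0.32 ± 0.33 (SD, n = 9) in HGI. The difference was 0.47 ± 0.13 (SE), with an unadjusted p of 0.00117 and an adjusted p of 0.520 in limma. The exact permutation test gave p = 0.00432.

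Mmp12 reached the 8 arrays that the filter on dim probes asks for mainly through HGI, with 2 LGI and 7 HGI arrays well above background. Its test and the repeats below are therefore no support separate from that filter. The direction of Mmp12 did not rest on a single mouse: leaving out each in turn gave 0.41 to 0.53, with an unadjusted p under 0.05 in 17 of 17 cases. It was 0.54 ± 0.12 (SE) with HGI 9 and HGI 10 left out. It was 0.65 among the first 8 arrays scanned and 0.33 among the later 9, each set holding both diets. Its size depended on the background correction because the probe is dim. It was 0.78 with an offset of 16 in place of 50, and 1.57 with the scanner program's processed signals. On the main scale a ratio of a dim probe is drawn towards 0, and the probe was not well above background in 6 of 8 LGI mice. The pool was dim too: its Cy3 signal was well above background on 5 of 17 arrays, and both dyes were on 0 LGI and 2 HGI arrays. The size of the Mmp12 difference is therefore not settled, and no fold is given. Its sign was the same in these repeats, which reuse the same mice and the same filter and so do not settle it.

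Most macrophage markers had higher means in HGI, as did Mmp12 and Timp1. Of 14 such genes, all of which passed the filter on dim probes, 13 were higher in HGI, beside 52.6% of all tested genes. Among them 3 (Gpnmb, Cd84 and Mpeg1) had an unadjusted p under 0.05 in limma, beside 7.74% of all genes, with none passing the adjustment. Several others differed little, such as Csf1r by 0.038, Itgam by 0.030, Mrc1 by 0.019 and Fcgr1 by 0.0089. Cd14, at -0.079, was lower. The mean log ratio of the list ran from -0.27 to -0.0029 in LGI and from -0.13 to 0.49 in HGI. HGI 4, the mouse highest in Timp1, and HGI 3, the mouse highest in Mmp12, were also the highest in this list. HGI 4 was also the highest mouse in the lists of neutrophils (0.35), fibroblasts and progenitors (0.24) and endothelium (0.24), so its high values were not limited to macrophage markers. The part of any of these markers in the Mmp12 and Timp1 differences was not tested. In whole tissue, fewer or more cells of a type and less or more RNA per cell cannot be told apart.

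Of 8 neutrophil markers 4 were tested, 2 higher and 2 lower in HGI, while Camp and Ngp, like Mmp8, were well above background on no array. Mesothelial markers were lower in HGI in 6 of 6 genes, 4 of them with an unadjusted p under 0.05, and their list mean ran from -0.036 to 0.54 in LGI and from -0.34 to 0.41 in HGI. Their part in the lower Timp2 and Timp4 means was not tested. Adipocyte markers, which mark the labelled tissue, passed the filter on dim probes in 8 of 8 cases, and 6 of the 8 were lower in HGI. Of these, Plin1, which coats the lipid droplet, differed by -0.22 and Pnpla2, the lipase that starts triglyceride breakdown, by -0.20, both with an unadjusted p under 0.05 in limma. Lep, at 0.37, and Cidec, at 0.049, went the other way. The adipocyte list mean ran from -0.27 to 0.15 in LGI and from -0.29 to 0.078 in HGI. Its lowest HGI mice were HGI 9 (-0.29) and HGI 10 (-0.25). The part of adipocyte RNA in the lower Timp4 mean was not tested.

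The other genes of the stromelysin and gelatinase kinds differed less. Mmp3, which cuts many matrix proteins and activates other MMPs, ran from -0.24 to 0.19 in LGI and from -0.097 to 0.33 in HGI. Its difference was 0.14 ± 0.075 (SE), with an unadjusted p of 0.0789 in limma. In the 15 mice other than HGI 9 and HGI 10 it was 0.17 ± 0.079 (SE), with an unadjusted p of 0.0438. The Mmp3 probe is dim, and with the scanner program's processed signals its difference was 0.56 ± 0.41 (SE), with an unadjusted p of 0.185 in limma. Mmp10 and Mmp11, the other stromelysins, differed by 0.049 and by -0.028.

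Mmp2, the gelatinase made by stromal cells, differed by 0.089 ± 0.096 (SE) with all mice. HGI 9 at -0.32 and HGI 10 at -0.23 were its lowest values. Without that pair the Mmp2 difference was 0.19 ± 0.082 (SE), with an unadjusted p of 0.0339 in limma. Mmp9, the gelatinase of myeloid cells, differed by -0.024 on its brighter probe and by 0.052 on its dimmer one, so its sign was not settled.

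Mmp14 is the membrane-anchored enzyme that activates Mmp2 and cuts fibrillar collagen. Its fitted difference of -0.50 ± 0.45 (SE) was the largest in size of the 38 genes, with an unadjusted p of 0.277 in limma, and it came from 1 spot. LGI 4 read 4.08, while the other LGI mice ran from -0.45 to -0.15 and the HGI mice from -0.59 to 0.017. On that spot the mean Cy5 intensity was 41942.71 over a local background of 7076, and the Cy3 intensity was 2233.387 over a local background of 465. On the same spot of HGI 4, for comparison, these were 1250.481 over 51 and 1107.963 over 53. The scanner program did not flag the spot as an outlier, and marked it as not well above background in Cy3.

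On the second Mmp14 probe LGI 4 read -0.25, among the other mice. The difference on that probe was -0.036 ± 0.068 (SE), and on the brighter probe without LGI 4 it was 0.047 ± 0.079 (SE). In the authors' deposited values the Mmp14 difference was 0.050. No difference of Mmp14 between the diets was therefore detectable beyond the spread between mice once that spot was left out.

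Mmp7, or matrilysin, is a small enzyme typical of glandular and ciliated epithelium. Its log ratio ran from -1.81 to 2.31 with a median of -1.18 in LGI, and from -1.78 to 0.36 with a median of -1.22 in HGI. The medians lay close together, and the values ran far up because LGI 9 was at 2.31. HGI 1 at 0.36 and LGI 4 at 0.33 came next. The mean was -0.72 ± 1.41 (SD, n = 8) in LGI and -1.01 ± 0.67 (SD, n = 9) in HGI, a difference of -0.29 ± 0.45 (SE). Without LGI 9 the sign turned and the difference was 0.15 ± 0.31 (SE), with an unadjusted p of 0.638 in limma. Without HGI 9, HGI 10 and LGI 9 it was 0.23.

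The mice high in Mmp7 were those in which Foxj1, the master regulator of motile cilia, was detected. Foxj1 was well above background in 7 mice, and these were the 7 mice highest in Mmp7. The lowest of them was at -0.92 in Mmp7, and the highest of the other 10 mice was at -0.95. In LGI 9 Foxj1 read 2.29 and the mean of the cilia marker list was 0.87. Foxj1 was singled out after its values were seen, and the other cilia markers did not split the mice in this way. Tekt1 was detected in 14 mice and Dnah5 in 16, Ccdc39 in 4, of which 3 were among the 7 highest in Mmp7, Dnali1 in 3, all among those 7, Rsph1 in 3 with 2 among them, and Spag6 in 2 with 1 among them. LGI 9 was the highest mouse for 5 of the 7 cilia markers. Of the 7 cilia markers 2 passed the filter on dim probes, and their list mean ran from -0.57 to 0.87 in LGI and from -0.42 to 0.15 in HGI. The list of general epithelial markers was high in LGI 9 (0.61) but also in HGI 9 (0.93) and HGI 10 (0.60), where Mmp7 was at -1.39 and -1.22. Whether RNA of such cells is part of the Mmp7 values was not tested.

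**Figure D4:**
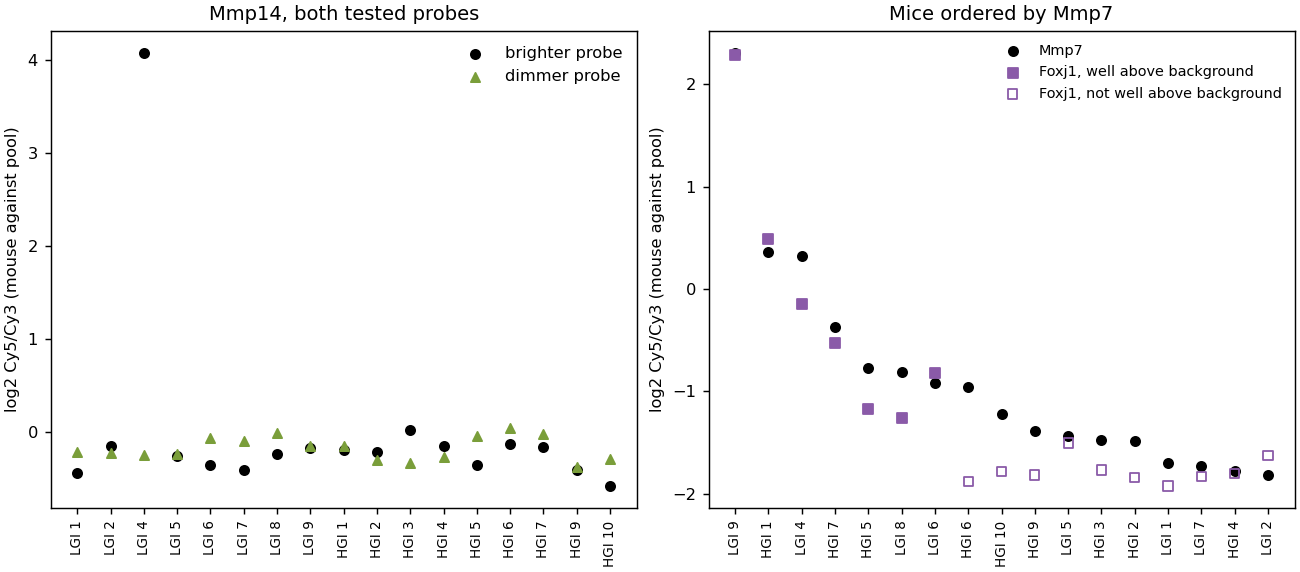
Left, log2 ratio of the brighter (circles) and dimmer (triangles) Mmp14 probe in each mouse; only LGI 4 on the brighter probe, at 4.08, lies away from the rest. Right, the mice in order of their Mmp7 log2 ratio (circles) with Foxj1 (squares, filled where well above background). The 7 filled squares belong to the 7 mice highest in Mmp7.

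The remaining tested metalloproteinases differed by 0.10 or less in size on the main scale, and none had an unadjusted p under 0.05 in limma. Sizes of dim probes depend on the background correction here too. With the scanner program's processed signals Mmp21 was at -0.41, Mmp28 at -0.27 and Mmp17 at 0.21, while Mmp24, at 0.070, was not larger. Mmp28, or epilysin, an enzyme of epithelia, differed by -0.10 ± 0.071 (SE), and 8 of 9 HGI mice lay below the LGI median. Mmp19 and the membrane-anchored Mmp17 differed by 0.092 and 0.090, Mmp24 by 0.080 and Mmp15 by 0.032. Mmp21 differed by -0.054 and Mmp23 by -0.042. All of these had diets that overlapped.

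Among the ADAMTS proteases no gene had an unadjusted p under 0.05 on its brightest probe. The largest higher values were in Adamts9, Adamts12 and Adamts5. Adamts9, which cuts versican and aggrecan, differed by 0.16 ± 0.097 (SE). Its highest mice were HGI 10 and HGI 9, at 0.35 and 0.34, and without them the difference was 0.060. A further Adamts9 probe gave 0.067 and another gave -0.070.

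Adamts12, which cuts cartilage oligomeric matrix protein, differed by 0.11 ± 0.10 (SE), and its second probe gave -0.031. Adamts5, the main aggrecanase of mouse cartilage, differed by 0.099 ± 0.20 (SE), with a wide spread from -0.82 in LGI 2 to 0.77 in LGI 7. Without LGI 2 the Adamts5 difference was -0.029. Neither gene differed between the diets beyond the spread between mice.

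The lowest values among the ADAMTS and ADAMTS-like genes were in Adamts1, Adamts3 and Adamtsl5. Adamts1, a versican-cutting enzyme, differed by -0.16 ± 0.13 (SE), and by -0.042 without HGI 9 and HGI 10, its lowest mice. Adamts3, a procollagen N-proteinase, differed by -0.097 ± 0.20 (SE). LGI 8 at 1.81 and LGI 7 at 0.95 were its highest mice, and all other mice lay between -0.13 and 0.51. Without LGI 8 the Adamts3 difference was 0.11. Adamtsl5 differed by -0.078 ± 0.086 (SE), and the diets overlapped.

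Adamts2, the main procollagen N-proteinase of skin and other collagen-rich tissue, shows how much the choice of probe matters. Its brightest probe gave 0.015 ± 0.13 (SE), and its 3 other tested probes gave 0.25, 0.23 and -0.035. The probe at 0.23 had an unadjusted p of 0.0210 in limma. The brightest probe gave 0.17 ± 0.095 (SE) with HGI 9 and HGI 10 left out. In all, 12 of the 38 genes had more than 1 tested probe, with 15 further probes between them, and 6 of these 15 gave a difference of the opposite sign. Adamts2 was named for its probes after its values were seen.

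HGI 9 and HGI 10 stood apart from the other arrays, with a median correlation of 0.00935 and 0.103 with them, beside 0.420 for LGI 9 and 0.538 to 0.692 for the rest. Markers of the seminal vesicle, a gland near the depot, and of smooth muscle were highest in this pair, with list means of up to 1.59 and 1.71. The list mean of epididymal markers lay below the pool in every mouse, from -3.12 to -2.58. One of them, Defb19, lay near the pool, with a mean of -0.17 in LGI and -0.15 in HGI. The design text names 2 more arrays, which the authors excluded and which were not analysed here. Whether their RNA was in the pool is not stated, and the cause of the low epididymal values was not tested. For 16 of the 38 genes HGI 9 and HGI 10 both lay outside the range of the other 7 HGI mice, beside 25.7% of all tested genes. They were below it for 12 genes, among them Mmp2, Mmp14, Timp2, Adamts1, Adamts2 and Adamts15, and above it for 4, which are Adamts9, Mmp10, Mmp17 and Mmp24. The part of other tissue in these values was not tested.

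Without HGI 9 and HGI 10, 21 of the 38 genes were higher and 17 lower in HGI, beside 50.1% of all genes higher, and 7 genes changed sign. Again 4 had an unadjusted p under 0.05 in limma, beside 7.79% of all genes, and 0% of all genes passed after adjustment. These 4 were Mmp12, Timp1, Mmp2 and Mmp3, all higher in HGI. Timp2 and Timp4 were no longer among them. Mmp12 and Timp1 were called at that level both with and without the pair. Both fits share all other arrays, so this is no second test. Mmp12 had passed the filter on dim probes mainly through its HGI arrays, and the Timp1 call holds for its brighter probe alone.

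The arrays were scanned one after another, and the first 8 and the later 9 each held both diets, so the differences were also computed within each set. Among the first 8 the genes with an unadjusted p under 0.05 were Mmp12, Timp1, Timp3 and Mmp28, beside 4.08% of all genes. Among the later 9 they were Mmp12, Mmp3, Timp2 and Timp4, beside 3.15%. Timp1 differed by 0.28 in the first set and by 0.49 in the later one. Timp4 differed by 0.025 and by -0.45, and Timp3 by -0.34 and by 0.0047. Whether the sets differ was not tested. Of the 38 genes Mmp12 alone was called in both sets, and it had passed the filter on dim probes mainly through its HGI arrays.

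**Figure D5:**
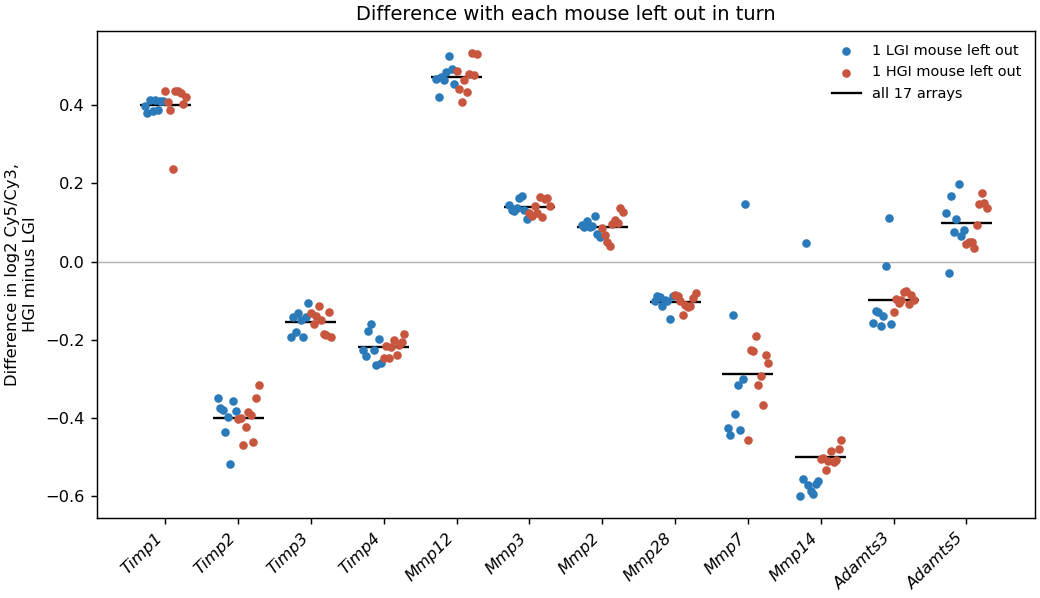
Difference between the diets (HGI minus LGI, log2 Cy5/Cy3) of 12 genes with each LGI mouse (blue) or HGI mouse (red) left out in turn; the black line is the value with all 17 arrays. Timp1 drops to 0.24 without HGI 4, Mmp7 and Mmp14 change sign without LGI 9 and LGI 4, and Mmp12 stays between 0.41 and 0.53.

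Genes of proteins that act with these enzymes were read the same way, from lists of the pathway. Of 21 activators and further inhibitors, 14 were tested, 8 higher and 6 lower in HGI, with a median difference of 0.020. Plau, the urokinase that makes plasmin, was the one with an unadjusted p under 0.05 in limma. It differed by 0.17 ± 0.081 (SE), with an unadjusted p of 0.0496 in limma. Mug1, Pzp, Spock1 and Spock3 were well above background on no array.

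Of 10 membrane-bound ADAM genes, 7 were tested, 4 higher and 3 lower. Adam33, expressed in smooth muscle and fibroblasts, differed by -0.22 ± 0.097 (SE), with an unadjusted p of 0.0349 in limma. Of 12 substrates and partners of ADAMTS proteases, 9 were tested, 6 higher and 3 lower. Ncan, the proteoglycan neurocan, differed by 0.34 ± 0.14 (SE), with an unadjusted p of 0.0276 in limma. None of these genes passed after adjustment over all genes.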

How the data were processed

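Each array held 43790 spots, of which 2256 were controls. The scanner files hold mean spot intensities and local background intensities in both dyes, processed signal intensities, and flags, written by Agilent Feature Extraction 9.1.3.1 per the file headers (9.5.1.1 per the submitters' processing notes). The authors also deposited log2 values of 19836 probes, whose filter, scale and centring no source used here states; the column medians lie between 8.329 and 8.331, and they served as an alternative.

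In limma 3.58.1 (R 4.3.3), intensities were corrected by normexp (offset 50) and normalised within arrays by loess, with control and outlier-flagged spots at weight 0. Flagged spots (4 to 43 per array) were left out, and spots of a probe were averaged. A probe was tested where at least 8 arrays had its Cy5 well above background, and a gene is its brightest tested probe. On an array, 54.2% to 66.7% of gene spots were well above background in Cy5. Names came from the RefSeq table of GRCm38.p6 by accession (23374 probes), symbol (6733) or older symbol (2919), and 8148 probes kept the file's name.

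The diets were compared over all 17 arrays (lmFit, eBayes, Benjamini-Hochberg over 18133 genes). On simulated data of 17979 genes with the real spread, 100 genes were changed by 0.5 in log2 and 100 by 1. Of these, 87% and 98% were recovered. These shares hold for that simulation alone, since the Benjamini-Hochberg cutoff depends on how many genes change. They do not give the chance of finding such changes on the real arrays. There Mmp12, at 0.47, had an adjusted p of 0.520 in limma, and no gene passed. Detection was compared by Fisher's exact test over 27573 genes. Plots were made with matplotlib 3.10.9 under Python 3.11.15.

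Named with values were every tested Timp and Mmp, the tested Adamts and Adamtsl genes with an unadjusted p under 0.05 and the 3 largest differences each way, and genes of the pathway lists with an unadjusted p under 0.05. The members, lists and alternatives were chosen with earlier results of these data known.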

Additional observations from a re-analysis of the deposited data

Results flagged for a closer look

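In 6 of 76 sets of mice (each of the 38 tested genes in each diet) 1 mouse lay farther from the nearest other mouse of its diet than Dixon's criterion allows, and chance alone gives about 1 in 20. Timp1 in HGI 4 was at 1.33, with the other HGI mice from -0.28 to 0.12. Mmp14 in LGI 4 was at 4.08, with the other LGI mice from -0.45 to -0.15. Mmp10 in LGI 5 was at 0.59, with the others from -0.0026 to 0.26. Adamts18 in LGI 2 was at 0.45, with the others from -0.055 to 0.13. Mmp28 in LGI 8 was at -0.16, with the others from 0.064 to 0.25. Adamts10 in HGI 6 was at 0.28, with the others from -0.38 to -0.059. Mmp7 in LGI 9, at 2.31, did not pass the criterion, since LGI 4 at 0.33 was the next highest.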

How the results depend on the processing

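Mmp12 kept its direction in 33 of 33 alternatives that gave a value, Timp1 and Timp2 in 35 of 35, and Timp4 in 34 of 35; the deposited table and the filter on all 17 arrays give no value for dim genes. The number of the 38 genes with an unadjusted p under 0.05 was 2 with processed signals, median centring, array weights and the replicate block (3 over the same arrays with no block). 1 gene of all those tested passed the adjustment with Cy5 alone and with array weights. With the authors' deposited values and with the filter on all 17 arrays, 11 genes were higher, since fewer were tested. Leaving out each mouse gave 0 to 3 genes past the adjustment (3 without LGI 7), 2 to 6 of the 38 with an unadjusted p under 0.05 (2 without HGI 10, 6 without HGI 6), 15 to 22 higher, 16 to 23 lower, and a median difference of -0.028 to 0.013. The share of all genes with such a p was not computed for these settings or with 1 mouse left out. These counts therefore cannot be set beside a background. By exact permutation Timp2 (-0.40) and Timp4 (-0.22) no longer had an unadjusted p under 0.05.

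Among the genes named with values, these differences changed sign, and the cause was not tested. With Cy5 alone Mmp15 was -0.033. In the authors' values Mmp14 was 0.050, Mmp17 -0.12 and Mmp23 0.011. With the mean of probes Mmp9 was 0.014. Without HGI 9 and HGI 10, Mmp11 was 0.060, Mmp23 0.057 and Mmp24 -0.014; also without LGI 9, Mmp11 was 0.023, Mmp23 0.040, Mmp24 -0.034 and Mmp7 0.23. In the first 8 arrays Adamts3 was 0.0049, Mmp14 0.037 and Timp4 0.025. In the later 9 Adamts5 was -0.053, Mmp11 0.0027, Mmp15 -0.019, Mmp19 -0.0033, Mmp21 0.015, Mmp9 0.026 and Timp3 0.0047.

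With each mouse left out in turn, signs changed, among the genes named with values by the rule, for Adamts5 (-0.029 to 0.20), Mmp9 (-0.070 to 0.031), Mmp11 (-0.068 to 0.014), Mmp14 (-0.60 to 0.047), Mmp15 (-0.0020 to 0.080), Adamts3 (-0.16 to 0.11), Mmp7 (-0.46 to 0.15) and Mmp23 (-0.068 to 0.0080). Over all 38 tested genes, 4 changed sign without LGI 4, 3 without HGI 4 and 1 without LGI 9, among them Adamts2, Adamts14, Adamts15 and Adamtsl3.

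For replicate numbers shared by the diets, the correlation of deviations in 7 pairs of mice ran from -0.38 to 0.26, with 3 over 0.1. No reference values were computed for these correlations, so they do not settle whether the mice were paired. With the replicate block over these 14 arrays, and equally over the same arrays with no block, Adamts3 was 0.10, Mmp11 0.0076, Mmp23 0.015 and Mmp9 0.0061. A slide block was not run, since each slide held 1 array. The number of arrays limits the precision, and genes dim in most mice, such as Mmp12, have log ratios that depend on the background correction.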
